A study of Mus musculus with 15 samples.

Results

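The genes described here are 10 subunits of the Polycomb repressive complexes, chosen by name: Ezh2, Ezh1, Eed, Suz12 and Jarid2 of Polycomb repressive complex PRC2, and Bmi1, Ring1, Rnf2, Cbx2 and Cbx8 of PRC1. They are 10 of the 53379 genes in the table, each matched 1 row, and all 10 passed the filter on low values (10 or more normalized reads in 3 or more of the libraries), as did 12673 genes in all.

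RNA was sequenced from mouse fetal liver cells transformed by MLL-ENL, a fusion oncogene of acute leukaemia, to learn what the transcription factors C/EBPα (Cebpa) and C/EBPβ (Cebpb) do in such cells. The 15 libraries form 5 groups of 3, from 2 clonal lines that the labels call C1 and C2. WT cells of C1 and of C2 carried MLL-ENL and floxed but intact Cebpa and Cebpb, with no exogenous gene labelled. dKO cells of C1 and of C2 had lost both genes and carried an exogenous GFP vector, so each comparison of dKO with WT cells is also one of GFP vector against none. The dKO-LAP* cells (LAPS in the labels) were dKO cells of C1 that carried GFP and LAP*, a rat C/EBPβ isoform that spans its whole length, and no such cells of C2 were analysed here. All cells grew in IMDM with 10% FCS and IL-3. Each dKO line grew out of 1 clone of 1 mouse, and the libraries of a line are RNA samples taken at different times, so p-values measure the spread between such samples and not between mice or clones.

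Polycomb complexes keep developmental genes silent. PRC2 holds a methyltransferase, EZH2 or its paralog EZH1, with EED and SUZ12, and places methyl groups on lysine 27 of histone H3. JARID2 helps to bring PRC2 to its sites. PRC1 holds RING1 or RNF2 (RING1B), ubiquitin ligases of histone H2A, with a PCGF protein such as BMI1. In canonical PRC1 a CBX protein, among them CBX2 and CBX8, reads the mark that PRC2 placed. In blood cells these complexes are known for silencing Hox genes and Cdkn2a, and EZH2 and CBX8 have been studied as factors that leukaemia with MLL fusions depends on.

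Cebpa and Cebpb had 0 reads in each dKO library, and 903 to 1437 and 1394 to 1559 normalized reads in WT cells of C1 and 1653 to 2267 and 1353 to 1634 in those of C2. In dKO-LAP* cells Cebpa had at most 0.92 and Cebpb 2538 to 4216, and whether reads of the rat sequence were counted as Cebpb was not tested. Reads on genes numbered 9212237 to 13613500 per library. All 8 myeloid progenitor markers were detected, with a summed level of 57766 to 163795 normalized reads. This sum was higher in dKO than in WT cells of either clone, but not each marker rose. Fcgr3, Kit, Mpo and Elane passed the test described below as higher in dKO cells of both clones. Itgam did so in C1 alone and Ptprc in C2 alone, while Spi1 and Csf2rb passed in neither. Markers of T cells and fibroblasts summed to at most 11.5 and 8.39 normalized reads, those of erythroid cells and B cells to at most 18.3 and 2.68, and Alb and Ttr of hepatocytes were at 0 beside Afp, with 4.61 to 165. Endothelial markers summed to 117 to 570 with Cdh5 at 0. In C1 the 3 megakaryocyte markers summed to 19.4 to 41.5 in WT, 203 to 306 in dKO and 55.3 to 68.1 in dKO-LAP* cells. In C2 they summed to 7.97 to 29.4 in WT and 117 to 201 in dKO cells. By the same test Itga2b was higher in dKO cells of both clones and Gp1bb in C1, while Pf4 was lower in C1. The part of these markers in the results was not tested.

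Within WT cells of C1, Suz12 had the highest level per length, 958 ± 78.5 normalized reads per kb of exon (mean ± SD, n = 3 libraries). Ezh2 followed with 273 ± 38.4, Bmi1 with 247 ± 35.0, Eed with 198 ± 23.7, Rnf2 with 178 ± 26.4 and Jarid2 with 172 ± 23.0. These 5 neighbours in the order overlapped, each with the next. Below them, and apart from each other, lay Ring1 with 104 ± 3.02 reads per kb, Ezh1 with 51.5 ± 3.59, Cbx8 with 22.1 ± 2.22 and Cbx2 with 4.39 ± 0.727. Suz12 ranked highest and Ring1 and Ezh1 ranked 7 and 8 in each of the 5 groups. In WT cells of C2 the order differed. Rnf2, with 207 ± 14.5 reads per kb, overlapped Ezh2 (213 ± 4.97) at the top of the middle range, Eed was lowest of that range with 139 ± 6.17, and Cbx2, with 31.8 ± 5.01, overlapped Cbx8 (26.0 ± 5.68).

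**Figure D1:**
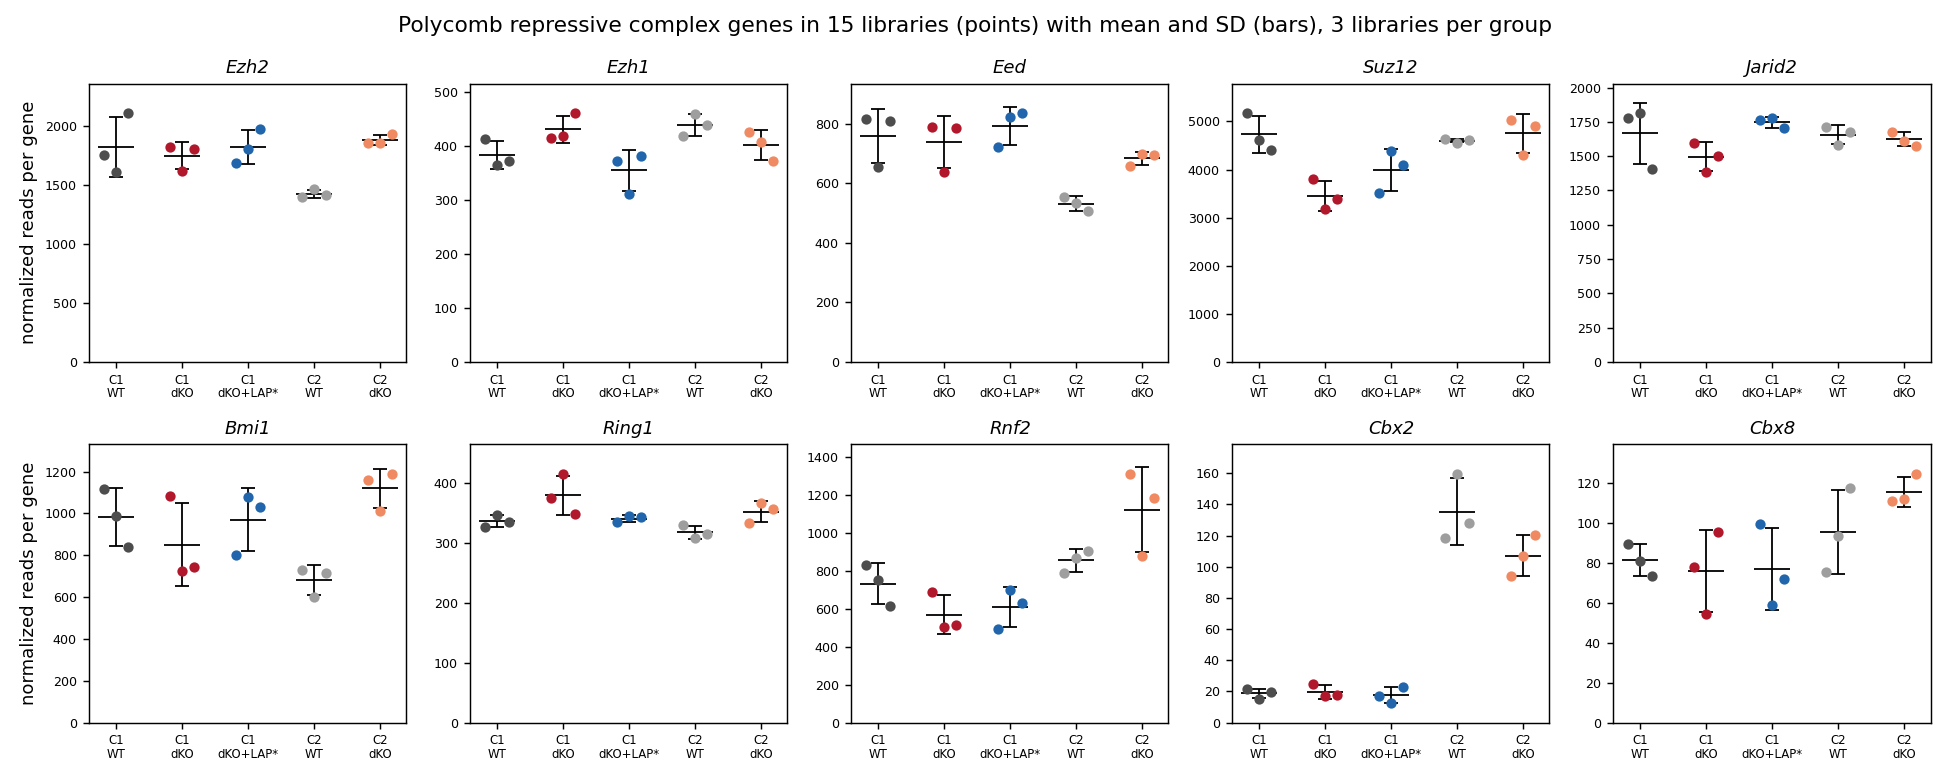
Normalized reads per gene (linear axes from 0) of the 10 Polycomb genes in each of 15 libraries (points), with the mean and SD of 3 libraries per group (bars). Ezh2, Eed and Bmi1 lie lower in WT than in dKO cells of C2, Suz12 lies lower in dKO than in WT cells of C1, and Cbx2 lies between 12.9 and 24.9 reads in each library of C1 and between 94.2 and 159 in each of C2.

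Loss of both C/EBP genes went with higher Ezh2, Eed and Bmi1 in C2 and with lower Suz12 in C1, and no Polycomb gene of the 10 passed the test in both clones. Changes below are differences in log2(normalized reads + 1) with their standard error, tested with limma over all 12673 genes, and a Benjamini-Hochberg adjusted p under 0.05 counted as a change. In bulk RNA a lower value in each cell and a smaller share of cells that express a gene cannot be told apart.

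Ezh2, the main methyltransferase of PRC2 in dividing cells, lies on chromosome 6 from 47530139 to 47595341. It had 1754, 1605 and 2105 normalized reads in WT and 1819, 1615 and 1806 in dKO cells of C1, and these groups overlapped. In C2 it had 1399, 1462 and 1411 in WT and 1855, 1852 and 1933 in dKO cells, with each dKO library above each WT library. The change was -0.05 ± 0.089 in C1 (95% interval -0.24 to 0.14, adjusted p = 0.68, limma) and 0.40 ± 0.089 in C2, a 1.32-fold rise (adjusted p = 0.0022, limma). The effect of dKO was 0.45 ± 0.13 higher in C2 than in C1 (adjusted p = 0.013, limma), and this call was lost under quantile normalization (0.30, adjusted p = 0.097).

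Eed, whose product binds methylated histone H3 and stimulates EZH2, lies on chromosome 7 from 89954654 to 89980983. Its WT libraries had 815, 655 and 809 normalized reads in C1 against 789, 639 and 786 in dKO cells, again with overlap. In C2 the WT libraries had 555, 534 and 508 and the dKO libraries 658, 700 and 694, which did not overlap. Eed rose 1.29-fold in C2 (0.36 ± 0.10, adjusted p = 0.011, limma), while the change in C1 was -0.04 ± 0.10 (interval -0.26 to 0.18). The difference between the clones, 0.40 ± 0.14, passed narrowly (adjusted p = 0.046, limma). It held under 3 of 8 alternative settings (adjusted p = 0.045 to 0.11), and it held with only 3 of the 12 libraries left out in turn, replicate 2 of WT and replicates 1 and 3 of dKO cells of C1 (0.011 to 0.12 over all 12).

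Suz12, the scaffold subunit of PRC2, lies on chromosome 11 from 79993106 to 80034123. In C1 it had 5167, 4624 and 4415 normalized reads in WT and 3803, 3189 and 3385 in dKO cells, so each dKO library lay below each WT library. In C2 the values were 4632, 4559 and 4617 in WT and 5039, 4299 and 4915 in dKO cells, which overlapped. Suz12 fell by 0.45 on the log2 scale in C1 (SE 0.093, 1.37-fold lower, adjusted p = 0.0012, limma), and changed by 0.04 ± 0.093 in C2 (interval -0.16 to 0.24). The clones differed by 0.50 ± 0.13 (adjusted p = 0.0099, limma), a call kept under all 8 alternatives (adjusted p = 0.0028 to 0.044) and with each of the 12 libraries left out (0.0053 to 0.031).

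The other PRC2 members did not pass the test in either clone. Ezh1, the paralog of Ezh2 that persists in resting cells, had 413, 363 and 372 normalized reads in WT and 414, 417 and 460 in dKO cells of C1, a difference of 0.17 ± 0.096 (adjusted p = 0.19, limma) between groups that did not overlap. In C2 its difference was -0.13 ± 0.096 (interval -0.33 to 0.08). Jarid2 had 1409 to 1811 normalized reads in WT and 1387 to 1597 in dKO cells of C1, and 1578 to 1712 and 1577 to 1678 in C2. Its differences were -0.15 ± 0.086 in C1 and -0.03 ± 0.086 in C2. Without replicate 3 of WT cells of C1, its lowest WT library, Jarid2 passed as lower in C1 (-0.27, adjusted p = 0.0086, limma).

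Of the 5 PRC1 genes chosen, Bmi1 alone passed the test within a clone. Bmi1, the PCGF subunit that sustains self-renewal of blood stem cells and represses Cdkn2a, lies on chromosome 2 from 18677018 to 18686629. Its WT libraries of C2 had 728, 599 and 716 normalized reads and the dKO libraries 1160, 1011 and 1187. These groups lay far apart, and the rise was 1.65-fold (0.72 ± 0.15, adjusted p = 0.0016, limma). In C1 it had 1119, 989 and 841 in WT cells, and 1082, 727 and 744 in dKO cells, where replicate 1 stood above the other two and inside the WT range. That difference was -0.22 ± 0.15 (adjusted p = 0.28, limma), or -0.41 without replicate 1 of the dKO cells (adjusted p = 0.037). The effect of dKO was 0.94 ± 0.22 higher in C2 than in C1 (adjusted p = 0.0039, limma), a call kept under all 8 alternatives and with each library left out (adjusted p = 0.0005 to 0.014).

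Rnf2 (RING1B), the main H2A ubiquitin ligase of PRC1, lies on chromosome 1 from 151458004 to 151500955. In C1 it had 831, 752 and 615 normalized reads in WT and 689, 502 and 516 in dKO cells. In C2 it had 790, 870 and 907 in WT and 1310, 877 and 1184 in dKO cells. Both pairs of groups overlapped, and neither difference passed the test (-0.37 ± 0.17, adjusted p = 0.095 in C1, and 0.37 ± 0.17, adjusted p = 0.089 in C2, limma). The differences lay on opposite sides of 0, and that between the clones passed (0.74 ± 0.23, adjusted p = 0.026, limma). It held under all 8 alternatives (0.0088 to 0.037) but was lost with any of 6 of the 12 libraries left out (0.059 to 0.069), which were replicate 1 of WT and replicates 2 and 3 of dKO cells of C1, and replicate 1 of WT and replicates 1 and 3 of dKO cells of C2. Single libraries also decided the call within each clone: without replicate 3 of the WT or replicate 1 of the dKO cells of C1 Rnf2 was called lower there (adjusted p = 0.040 and 0.032), and without replicate 2 of the dKO cells of C2 it was called higher there (0.019). DESeq2 called it in C2 with all libraries (adjusted p = 0.047).

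Ring1, the paralog of Rnf2, had 328, 347 and 335 normalized reads in WT and 375, 415 and 349 in dKO cells of C1, and 330, 308 and 316 against 334, 367 and 357 in C2. Its dKO libraries lay above its WT libraries in both clones, by little, and the differences of 0.17 ± 0.083 and 0.15 ± 0.083 did not pass (adjusted p = 0.13 and 0.18, limma). Under quantile normalization the difference in C1 passed (0.24, adjusted p = 0.039). The 2 CBX genes had few reads. Cbx2 differed by 0.07 ± 0.23 between dKO and WT cells in C1, where all its libraries had 12.9 to 24.9 normalized reads, and by -0.33 ± 0.23 in C2 (interval -0.83 to 0.17). Cbx8 had 54.5 to 124 normalized reads in the 12 libraries of WT and dKO cells, and its differences were -0.13 ± 0.22 and 0.30 ± 0.22.

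In all, 1 of the 10 genes was called in C1 (Suz12, lower), against 37.0% of all genes tested there, 19.9% lower and 17.1% higher. In C2, 3 of 10 were called (Ezh2, Eed and Bmi1, all higher), against 37.6% of all genes in either direction, 17.4% higher and 20.1% lower. The effect of dKO was higher in C2 than in C1 for 5 of 10 (Ezh2, Eed, Suz12, Bmi1 and Rnf2), against 15.1% of all genes, and lower for none, against 14.3% (29.4% in either direction). This count was 3 under quantile normalization, and also 3 without replicate 1 of WT or 2 of dKO cells of C1, or replicate 1 of WT or 1 or 3 of dKO cells of C2. The direction of calls depends on scaling in C1: under quantile normalization 2681 genes were called higher and 2052 lower there, in place of 2170 and 2516. Groups did not overlap for 3 of 10 in C1, where 45.2% of all genes did not, and for 4 of 10 in C2, where 51.5% did not. The median log2 difference over the 10 genes was -0.09 in C1 and 0.22 in C2, where the median of all genes tested was -0.01 and -0.03. No member had the same call in both clones, as 14.1% of all genes did, and none had opposite calls, as 4.10% did.

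**Figure D2:**
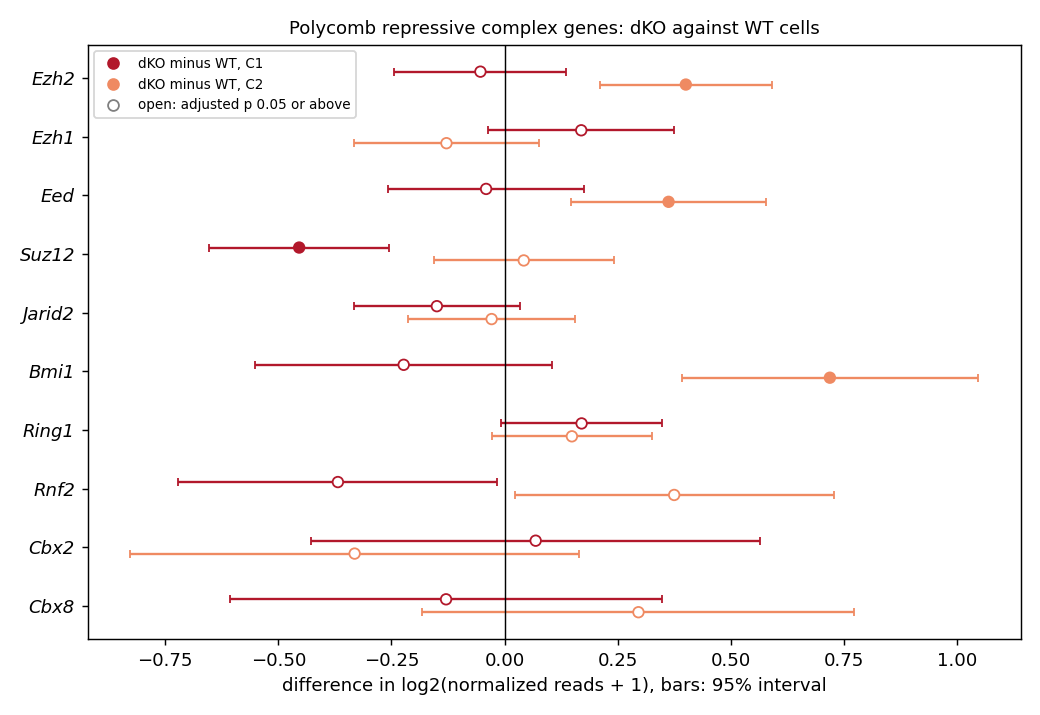
Difference in log2(normalized reads + 1) between dKO and WT cells for the 10 Polycomb genes in C1 (dark red) and C2 (orange), with 95% intervals; filled points passed an adjusted p of 0.05. Suz12 is filled in C1 only (-0.45), and Ezh2 (0.40), Eed (0.36) and Bmi1 (0.72) in C2 only.

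The WT cells of the 2 clones differed in 4 of the 10 genes, 1 higher and 3 lower in C2, against 41.0% of all genes tested (19.7% higher and 21.3% lower). Quantile normalization added Ezh1 as higher in C2 (0.28, adjusted p = 0.032, limma). Groups did not overlap for 5 of 10, as for 50.6% of all genes. Cbx2, a CBX protein that compacts nucleosomes, had 21.4, 15.3 and 19.4 normalized reads in WT cells of C1 and 119, 159 and 128 in those of C2. It was 6.93-fold higher in C2 (2.79 ± 0.23, adjusted p = 1e-07, limma), the largest difference of any of the 10 genes in these comparisons, and its dKO libraries kept this order (16.8 to 24.9 against 94.2 to 120). Ezh2 was 1.27-fold lower (-0.35 ± 0.089, adjusted p = 0.0055), Eed 1.42-fold lower (-0.51 ± 0.10, adjusted p = 0.00082) and Bmi1 1.44-fold lower (-0.53 ± 0.15, adjusted p = 0.012, limma) in WT cells of C2 than of C1. The call on Bmi1 was lost without replicate 1 of WT cells of C1 or replicate 2 of those of C2 (adjusted p = 0.062 each).

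This comparison and that of dKO with WT cells of C2 share the 3 WT libraries of C2, so the levels of the other groups are set side by side. The dKO libraries of C2 lay inside the range of WT cells of C1 for Ezh2 (1852 to 1933 against 1605 to 2105) and Eed (658 to 700 against 655 to 815). For Bmi1, with 841, 989 and 1119 in WT cells of C1, 1 of the 3 dKO libraries of C2 lay inside that range (1011) and 2 above it (1160 and 1187). Suz12, with 4415 to 5167 normalized reads in WT cells of C1 and 4559 to 4632 in those of C2, overlapped between the WT groups.

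Since Ezh2, Eed and Bmi1 rose together in C2 and Suz12 fell in C1, the 250 bases before the start of each are shown, from RefSeq on build GRCm38.p6, as chr6:47595031-47595280 (minus strand), chr7:89980977-89981226 (minus strand), chr2:18676768-18677017 (plus strand) and chr11:79992856-79993105 (plus strand). Capitals mark matches, on either strand, to TTTCCCGC or TTTGGCGC (forms of the E2F motif), to TTGCNNAA (the C/EBP core, where N is any base) and to CCAAT (the NF-Y box).
Ezh2: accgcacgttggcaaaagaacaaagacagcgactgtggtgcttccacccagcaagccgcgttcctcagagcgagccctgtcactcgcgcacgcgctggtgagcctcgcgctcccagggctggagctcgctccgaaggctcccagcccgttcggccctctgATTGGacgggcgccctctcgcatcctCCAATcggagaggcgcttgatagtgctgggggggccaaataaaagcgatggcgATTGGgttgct
Eed: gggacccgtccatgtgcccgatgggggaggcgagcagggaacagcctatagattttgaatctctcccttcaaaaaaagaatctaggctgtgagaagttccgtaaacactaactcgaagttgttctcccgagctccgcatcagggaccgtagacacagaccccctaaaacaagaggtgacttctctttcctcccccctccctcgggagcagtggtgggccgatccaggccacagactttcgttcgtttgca
Bmi1: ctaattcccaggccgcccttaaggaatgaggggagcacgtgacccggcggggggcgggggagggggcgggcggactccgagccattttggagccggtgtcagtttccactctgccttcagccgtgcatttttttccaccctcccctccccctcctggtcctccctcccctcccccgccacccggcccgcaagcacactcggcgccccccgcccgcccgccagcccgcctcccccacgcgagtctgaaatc
Suz12: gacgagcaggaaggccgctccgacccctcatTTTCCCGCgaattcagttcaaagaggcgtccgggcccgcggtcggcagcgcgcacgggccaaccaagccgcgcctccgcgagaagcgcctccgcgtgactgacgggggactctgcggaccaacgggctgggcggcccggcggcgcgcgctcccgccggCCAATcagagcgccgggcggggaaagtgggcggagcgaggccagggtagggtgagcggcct

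The promoter of Ezh2 held 3 CCAAT boxes, starting 90, 64 and 11 bases before the start. That of Suz12 held TTTCCCGC at 219 and CCAAT at 61 bases before the start, and those of Eed and Bmi1 held none of the 4 motifs. No TTGCNNAA match lay in any of these 4 windows. Of the 10 genes 9 had a promoter in the table, in 10 windows, and the only TTGCNNAA match was in that of Cbx8, 118 bases before the start, beside CCAAT at 220 and 156. Matches to different motifs did not overlap. Of all 32851 promoter windows, 0.895% held TTTCCCGC, 0.417% TTTGGCGC, 9.56% TTGCNNAA and 33.8% CCAAT.

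Adding LAP* to dKO cells of C1 gave no call on any of the 10 genes with limma, edgeR or DESeq2, where limma called 4.46% of all genes tested. At an unadjusted p under 0.05, 3 of the 10 differed with limma, as did 17.9% of all genes. Suz12 had 3510, 4379 and 4091 normalized reads in dKO-LAP* cells, against 3803, 3189 and 3385 in dKO cells and 4415 to 5167 in WT cells. Its libraries overlapped those of dKO cells (0.21 ± 0.093, interval 0.01 to 0.40, adjusted p = 0.26) and lay below those of WT cells (-0.25 ± 0.093, adjusted p = 0.053, limma). The call against WT cells was made without replicate 3 of the WT cells (adjusted p = 0.036) or replicate 2 of the dKO-LAP* cells (0.027).

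Jarid2 had 1762, 1774 and 1702 normalized reads in dKO-LAP* cells, each above the dKO libraries (1387 to 1597), with a difference of 0.23 ± 0.086 (adjusted p = 0.17, limma). Ezh1, with 372, 311 and 381, and Ring1, with 335, 345 and 344, had each library below the dKO libraries, by -0.28 ± 0.096 and -0.15 ± 0.083 (adjusted p = 0.12 and 0.37, limma). Groups failed to overlap in 24.1% of all genes in this comparison. Ezh2 (1685, 1803 and 1973), Eed (720, 822 and 834), Bmi1 (799, 1079 and 1032) and Rnf2 (492, 699 and 633) overlapped their dKO libraries. For Bmi1 the interval of the difference ran from -0.13 to 0.53 and for Ezh2 from -0.13 to 0.25. Against WT cells, too, none of the 10 was called in dKO-LAP* cells by any of the 3 tools, where limma called 32.5% of all genes, and 1 of the 10 had an unadjusted p under 0.05 with limma, as did 41.6% of all genes. Groups did not overlap for 1 of 10, as for 40.9% of all genes.

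Ratios of paralogs that can take the same place in a complex were compared within each library, per kb of exon. Ezh2 exceeded Ezh1 4.73-fold to 6.31-fold in WT and 4.31 to 4.89 in dKO cells of C1, and 3.55 to 3.74 in WT and 4.85 to 5.80 in dKO cells of C2. The 3 WT libraries of C2 thus had the lowest ratios of all 15. Rnf2 over Ring1 was 1.44 to 1.99 in WT and 0.951 to 1.44 in dKO cells of C1, and 1.88 to 2.25 and 1.88 to 3.08 in C2, and the groups overlapped in both clones. Cbx8 over Cbx2 was 3.63 to 6.68 in each library of C1, and 0.678 to 1.06 in WT and 1.20 to 1.36 in dKO cells of C2. Cbx8 thus lay below Cbx2 in 2 of the 3 WT libraries of C2 and above it in the other libraries. These ratios are given as a description, with no test.

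Bmi1 over its closest paralog Pcgf2 (MEL18) did not overlap between any of the 5 groups. The ratio was 31.4 to 37.1 in WT, 12.1 to 19.3 in dKO and 23.3 to 29.7 in dKO-LAP* cells of C1. In C2 it was 5.33 to 7.29 in WT and 21.4 to 22 in dKO cells. The ratio was therefore lower in dKO than in WT cells of C1 and higher in those of C2. In C1 this came with more Pcgf2 rather than a change of Bmi1 past the test, and in C2 both genes changed.

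**Figure D3:**
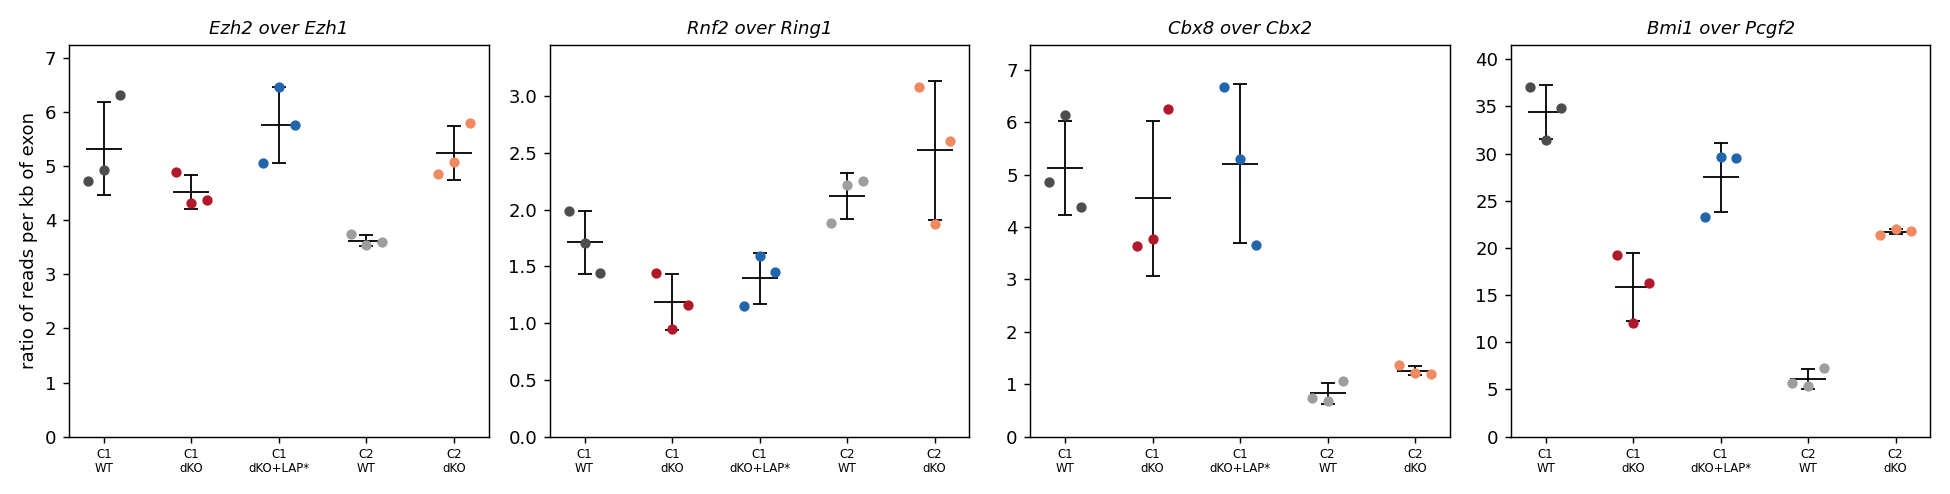
Ratio of normalized reads per kb of exon between paralogs in each of 15 libraries (points), with mean and SD per group (bars), on linear axes from 0. Cbx8 over Cbx2 lies at 3.63 or above in C1 and at 1.36 or below in C2, and Bmi1 over Pcgf2 falls in dKO cells of C1 (12.1 to 19.3) and rises in those of C2 (21.4 to 22).

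Of 42 other Polycomb genes, 38 were tested, and Scml2, Asxl3, AU022751 and Auts2 were too low. In C1, 17 of the 38 were called, 9 higher and 8 lower, where 37.0% of all genes were. This split was 11 higher and 4 lower under quantile normalization and 7 and 2 when only the groups compared were fitted. In C2, 6 were called, 3 in each direction, where 37.6% of all genes were. Their median difference was -0.00479 in C1 and -0.06 in C2. The effect of dKO differed between the clones for 11 of 38, 4 higher and 7 lower in C2 (2 and 8 under quantile normalization), against 29.4% of all genes tested.

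Of the 5 PCGF genes other than Bmi1, whose products decide which kind of PRC1 forms, 4 were called in each clone; with Bmi1 this is 4 of 6 in C1 and 5 of 6 in C2. Over all genes 37.0% and 37.6% were called, and over the 38 other Polycomb genes 44.7% and 15.8%. Among the subgroups of that list this one had the highest share called in each clone. This subgroup of 5 was not tested as one. Pcgf5, of a PRC1 variant that acts without CBX proteins, had 1220, 954 and 876 normalized reads in WT and 1566, 1222 and 1218 in dKO cells of C1, and 980, 894 and 943 against 1318, 1354 and 1369 in C2. It rose in both clones (0.40 ± 0.12, adjusted p = 0.015, and 0.52 ± 0.12, adjusted p = 0.0024, limma), although the C1 groups overlapped and the call there was lost without replicate 2 or 3 of the WT or replicate 1 of the dKO cells (adjusted p = 0.052 to 0.082), or when only the groups compared were fitted (0.098). Pcgf6 rose in both (0.95 and 0.32), more so in C1 (difference -0.63 ± 0.16, adjusted p = 0.0058, limma). Its call in C2 was lost with any library left out other than replicate 1 of the WT cells (adjusted p = 0.063 to 0.10). Pcgf3 fell in both, from 657 ± 87.1 to 438 ± 29.4 normalized reads in C1 and from 758 ± 50.3 to 588 ± 8.21 in C2 (-0.58 and -0.36).

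Pcgf2 and Cbx6, both of canonical PRC1, changed in opposite directions in the 2 clones, as 4.10% of all genes did. Pcgf2 had 26.8, 28.0 and 21.4 normalized reads in WT and 49.8, 53.5 and 40.6 in dKO cells of C1, and 115, 99.6 and 87.0 against 48.1, 40.8 and 48.3 in C2. It rose 1.86-fold in C1 and fell 2.16-fold in C2, to about the same range. Cbx6 had 24.1, 40.6 and 26.5 in WT and 288, 236 and 186 in dKO cells of C1, and 568, 687 and 541 against 389, 328 and 358 in C2. It rose 7.64-fold in C1 and fell 1.66-fold in C2 (difference -3.67 ± 0.26, adjusted p = 8.8e-08, limma). For both genes the dKO libraries of the 2 clones lay closer together than the WT libraries did.

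Bcor, a partner of PCGF1 in a non-canonical PRC1 and a tumour suppressor in leukaemia, rose 2.54-fold in C1, from 2063 ± 155 to 5247 ± 600 normalized reads, and was 6264 ± 330 in dKO-LAP* cells. In C2 it had 1445 ± 74.3 in WT and 1544 ± 37.0 in dKO cells, and the effects differed (-1.25 ± 0.12, adjusted p = 1.5e-06, limma). Phf19, which brings PRC2 to chromatin, rose 1.92-fold in C1 (0.94 ± 0.12), from 256 ± 52.9 to 487 ± 9.34 normalized reads, and had 364 ± 32.0 and 357 ± 23.8 in C2. Scmh1, a sex comb protein that associates with PRC1, had 28.1, 35.2 and 30.6 normalized reads in WT and 5.66, 8.39 and 5.30 in dKO cells of C1 and at most 1.82 in dKO-LAP* cells, with 3 reads in all there. From the summed reads its level was 6.75 times higher in dKO than in dKO-LAP* cells (95% interval 1.99 to 35.6) and 33.5 times higher in WT cells (11.1 to 165), intervals that cover counting error only. It was the only one of the 38 called between dKO-LAP* and dKO cells with limma (adjusted p = 0.00082), and this call was lost when only those groups were fitted (0.061). In C2 it had 406, 442 and 486 normalized reads in WT and 297, 334 and 340 in dKO cells, which did not overlap. That difference of -0.46 ± 0.30 did not pass (adjusted p = 0.25, limma), but was called lower under 4 of 8 alternatives, by edgeR (0.013), DESeq2 (0.0077), a fit of the compared groups alone (0.011) and a pseudocount of 5 (0.043). The difference of the dKO effect between the clones was lost with a pseudocount of 0.1 (adjusted p = 0.21). Smaller changes were called for Mga, Fbrs, Fbrsl1 and Asxl2 in C1 (-0.40, -0.26, 0.56 and 0.27) and for Kdm6a, an H3K27 demethylase, in C2 (0.27). Except for Fbrsl1 these calls were lost in places. Mga lost its call when only the groups compared were fitted (adjusted p = 0.052, limma), as did Fbrs (0.059) and Kdm6a (0.066), and Fbrs lost it under quantile normalization (0.087). Asxl2 lost it without replicate 2 of the WT or replicate 3 of the dKO cells of C1 (0.051 and 0.058), and Kdm6a without replicate 2 or 3 of the WT or replicate 1 or 3 of the dKO cells of C2 (0.059 to 0.12).

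**Figure D4:**
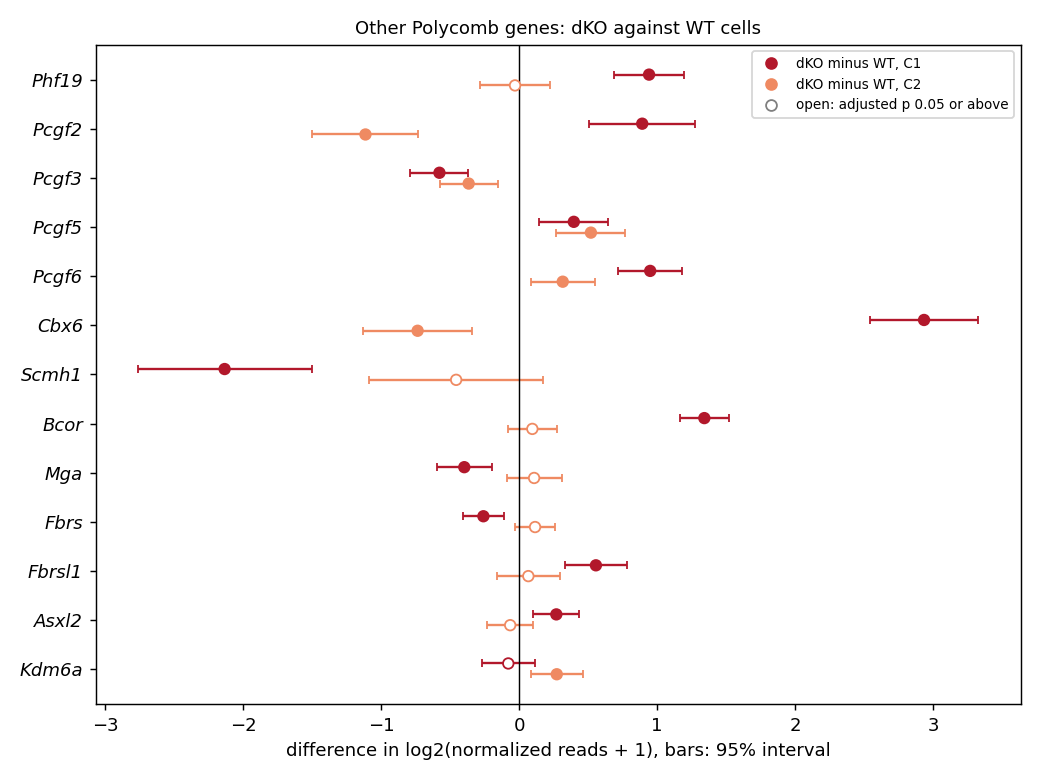
Difference in log2(normalized reads + 1) between dKO and WT cells for the 13 other Polycomb genes called in both clones, with an effect that differed between clones, or called with LAP*, in C1 (dark red) and C2 (orange), with 95% intervals; filled points passed an adjusted p of 0.05. Cbx6 (2.93 and -0.73) and Pcgf2 (0.89 and -1.11) lie on opposite sides of 0 in the 2 clones.

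The levels of genes that Polycomb complexes classically silence were set beside these. Of 30 such genes (Cdkn2a, Cdkn2b and the genes of the Hoxb, Hoxc and Hoxd clusters), 21 had 0 reads in each of the 15 libraries and 2 more (Hoxb6 and Hoxb7) had at most 1. All Hoxc and Hoxd genes listed were among the 21. Hoxa genes were not in the list, so these counts do not cover them. The other 7 were tested. Hoxb2 and Hoxb5 passed the filter on low values through C1 alone, and Hoxb13 and Cdkn2b through C2 alone, so the 7 are described gene by gene. Cdkn2a, which encodes the cell cycle inhibitors p16INK4a and p19ARF and is the best known target of BMI1, had 9.37, 11.7 and 11.2 normalized reads in WT and 87.2, 75.5 and 61.8 in dKO cells of C1. In C2 it had 41.8, 99.6 and 106 in WT and 444, 373 and 501 in dKO cells. It rose 6.41-fold in C1 (2.68 ± 0.27, adjusted p = 1.4e-06) and 5.65-fold in C2 (2.5 ± 0.27, adjusted p = 3.5e-06, limma), in groups that did not overlap, and stayed at 71.1 to 83.9 in dKO-LAP* cells. Cdkn2a passed the test as higher in both clones and Bmi1 in C2 alone, and whether their levels are linked was not tested.

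Levels of the 5 Hoxb genes tested lay far apart in the 2 clones. Those not tested, Hoxb1, Hoxb6, Hoxb7, Hoxb8 and Hoxb9, had almost no reads in either clone. Since Hoxb2, Hoxb5 and Hoxb13 passed the filter through a single clone, their differences between the clones are given as a description only. Hoxb2 and Hoxb5 had 201 to 282 and 95.8 to 118 normalized reads in WT cells of C1 and 0 in each library of C2, at least 80.9-fold and 36.6-fold lower against a floor of 3 reads per library. Hoxb13 had 69.6 to 90.6 in WT cells of C2 and no more than 1.34 in those of C1, where 2 reads were found in all (ratio 112, 95% interval 30.6 to 927, counting error only). Hoxb3 had 221 to 293 in WT cells of C1 and 13.6 to 27.9 in those of C2, and rose in dKO cells of C2 (30.0 to 39.8, 0.83 ± 0.22, adjusted p = 0.0074, limma). Hoxb4 was 5.35-fold lower in WT cells of C2 (-2.42 ± 0.18), and Cdkn2b had 7.34 to 13.9 normalized reads in WT cells of C2 and 2.04 to 2.71 in those of C1. In C1 the dKO libraries of Hoxb2 (309 to 352) and Hoxb5 (135 to 144) lay above the WT libraries, and those of Hoxb3 (184 to 202) below them. In C2 those of Hoxb4 (62.8 to 74.9) lay above the WT libraries (50.4 to 53.5) and those of Hoxb13 (34.5 to 46.7) below them. None of the 5 Hoxb differences just given passed the test (adjusted p = 0.082 to 0.20, limma). Over all genes tested, dKO and WT groups did not overlap for 45.2% in C1 and 51.5% in C2.

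**Figure D5:**
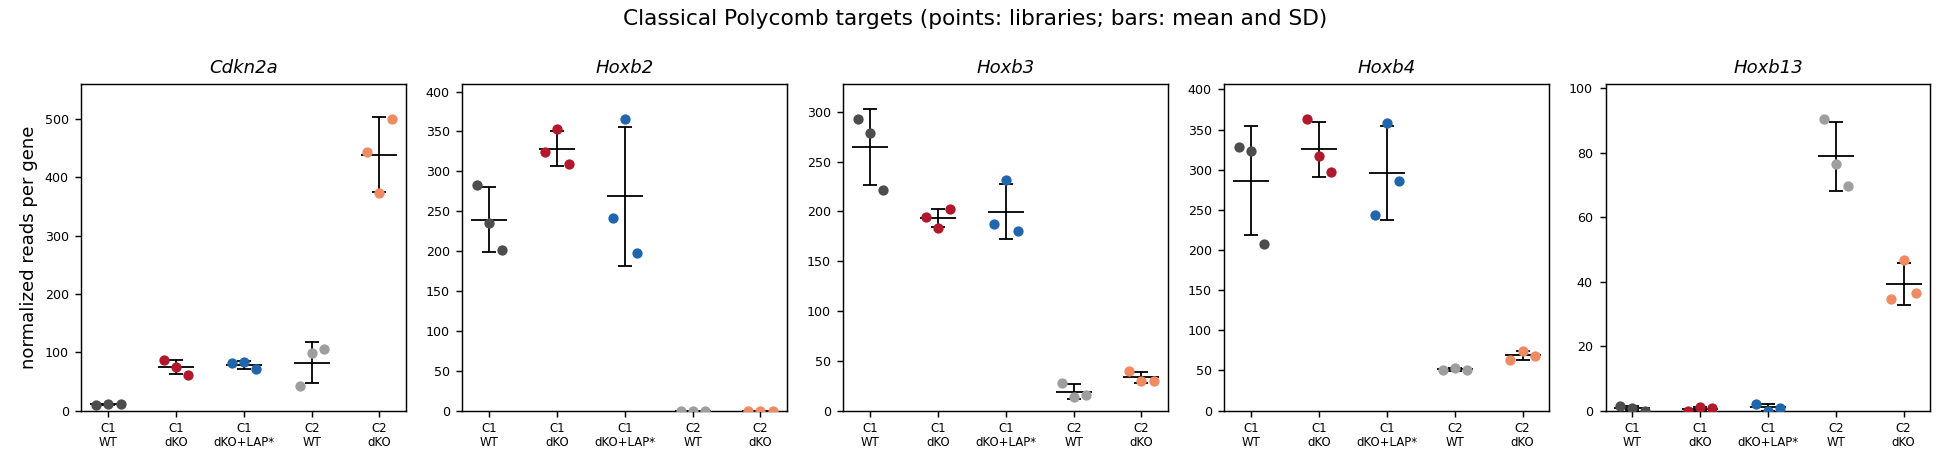
Normalized reads per gene (linear axes from 0) of 5 classical Polycomb targets in each of 15 libraries (points), with mean and SD per group (bars). Cdkn2a lies higher in dKO than in WT cells of both clones, Hoxb2 is at 0 in each library of C2, and Hoxb13 has at most 2.03 reads in C1.

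Parts of 4 of the 10 genes lie on the opposite strand of another gene's exons: Ezh2 shares 174 exon bases with Gm26625, Eed 261 with E230029C05Rik, Suz12 178 with Gm26563 and Rnf2 158 with Trmt1l. The libraries were stranded, but the strand setting of the counting is not given in the sources used here.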

How the data were processed

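Stranded mRNA libraries were read in pairs. Per the labels and the submitters' processing notes, the authors aligned reads to mm10 with STAR 2.5.3a, counted them per gene with HTSeq 0.10.0 and normalized them with DESeq2 1.26.0. The annotation and strand setting are not given in the sources used here. The deposited signal is a normalized read count per gene, scaled by a factor of its library. Of 53384 rows in the table, 5 hold other reads (22.4% to 26.2% of a library) and were left out, and 3 columns not matched to a sample were not used. Each column was a multiple of 1 step, and at least 99.988% of its values lay within 0.1 of a whole read, so reads were recovered for edgeR 4.0.16 and DESeq2 1.42.0.

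limma 3.58.1 (R 4.3.3) fitted log2(deposited normalized reads + 1) in all 15 libraries with 1 mean per group and a trended prior, for genes at 10 or more normalized reads in 3 or more libraries. Fold changes are on that scale and understate those of low genes. Values are means ± SD of 3 libraries, and alternatives are pseudocounts of 0.1 and 5, no filter, quantile normalization, a fit of the compared groups alone, a replicate block, the 2 count tools, and each library left out in turn. The procedure was tested on simulated data. There limma called 91% of 2-fold and 61% of 1.5-fold changes between dKO and WT cells of C1. For the difference between clones it called 63% and 17%, so small changes can be present without a call. Positions and exon lengths are those of GENCODE vM21 (mm10). The members and the lists of other Polycomb genes, targets, cell cycle genes and cell type markers were chosen with earlier results of these data known. From the other Polycomb genes the text names those called in both clones, those whose effect differed between clones and those called with LAP*, and from targets and cell cycle genes the 2 of largest change called in each direction; Mcm5 and the other targets named were added after their values were seen. Tables and plots used Python 3.11.15, pandas 2.3.3, numpy 2.4.6 and matplotlib 3.10.9.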

Additional observations from a re-analysis of the deposited data

Results flagged for a closer look

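The effect of dKO differed between the 2 clones, by limma's test of the difference, for 5 of the 10 Polycomb genes and 11 of 38 other Polycomb genes, where 29.4% of all genes tested differed, so the latter count is near that of all genes. The log2 effect in C2 minus that in C1 was 0.45 for Ezh2, 0.40 for Eed, 0.50 for Suz12, 0.94 for Bmi1 and 0.74 for Rnf2. Among the other Polycomb genes it was -3.67 for Cbx6, -2.0 for Pcgf2, -1.25 for Bcor, -0.97 for Phf19, -0.63 for Pcgf6, -0.49 for Fbrsl1 and -0.33 for Asxl2, and 1.68 for Scmh1, 0.51 for Mga, 0.37 for Fbrs and 0.35 for Kdm6a. Some of these differences depend on single libraries or settings. That of Kdm6a held under 4 of 8 alternatives (adjusted p = 0.047 to 0.10, limma) and only without replicate 3 of WT cells of C1, or replicate 1 of WT or 2 of dKO cells of C2 (0.011 to 0.13 over 12 libraries left out). That of Asxl2 held only without replicate 1 of WT or 2 of dKO cells of C1, or the same numbers in C2 (up to 0.082), and was lost with no filter (0.058). That of Fbrsl1 was lost without replicate 1 of WT or 2 or 3 of dKO cells of C1, or replicate 2 of WT or 1 or 3 of dKO cells of C2 (up to 0.061). That of Fbrs was lost under quantile normalization (0.068), and that of Scmh1 with a pseudocount of 0.1 (0.21). Each clone comes from 1 mouse, so clone and mouse cannot be told apart. Groups of 3 libraries are too small for a test of single outlying values.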

How the results depend on the processing

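Of the counts over the 10 Polycomb genes, those in C2, between the WT cells and with LAP* against dKO cells stayed within 1.5 times under the 8 alternatives. In C1, 2 genes were called in place of 1 under quantile normalization, which added Ring1, and the effect differed between clones for 3 in place of 5. Of the other Polycomb genes, 9 were called in C1 in place of 17 with only the groups compared, and between dKO-LAP* and dKO cells 0 with only the groups compared and 2 with DESeq2, in place of 1; the cause was not tested. Quantile normalization moved the median of all genes by 0.08 or less. Leaving out 1 library at a time gave 1 to 3 members in C1 (3 without replicate 3 of WT or replicate 1 of dKO cells), 3 to 4 in C2, 3 to 5 for the difference between clones, 0 to 1 for dKO-LAP* against WT cells, 0 against dKO cells and 3 to 4 between WT cells. It gave 1 to 2 of the other Polycomb genes between dKO-LAP* and dKO cells, and 266 to 479 of all genes there, where all libraries gave 565. No called value of the 10 genes or of the other Polycomb genes named turned its direction. For the targets, cell cycle genes and markers this was not examined. The differences of Ezh2 and Eed in C1, which were not called, crossed 0 under quantile normalization (0.07 and 0.04). Over the 10 genes and all comparisons, the alternatives added 3 calls and lost 6 and left 471 as they were, and leaving out a library added 7, lost 17 and left 396. Same-numbered replicates of different groups correlated by -0.319 to 0.297 across genes, so numbers do not pair samples. With the replicate number as a block, 1, 3, 4, 0, 0 and 4 members were called in C1, in C2, for the difference, for dKO-LAP* against dKO and WT cells, and between WT cells, and the call lost was that on Eed (adjusted p = 0.052, limma). Depth limits Cbx2 in C1, with 12.9 to 24.9 normalized reads.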

Other observations

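Of 16 cell cycle genes, 6 fell and none rose in dKO cells of C1, and in C2 3 rose and 4 fell. These are 37.5% and 43.8% of the list, near the 37.0% and 37.6% called over all genes. By direction, 19.9% of all genes fell and 17.1% rose in C1, and 20.1% fell and 17.4% rose in C2. E2f2, an E2F factor of the S phase programme, was lower in dKO cells of either clone, at 286 ± 45.8 normalized reads against 948 ± 131 in C1 (-1.73 ± 0.15) and 359 ± 59.7 against 602 ± 28.7 in C2 (-0.76 ± 0.15). Ccnb1, the mitotic cyclin B1, fell by 0.40 and 0.30. The genes that rose in C2 were Mcm6 (0.73 ± 0.077), Mcm3 (0.48 ± 0.085) and Mcm5 (0.38 ± 0.11), subunits of the replicative helicase, and Rrm2 fell by 0.65 there. These 3 Mcm genes were lower in WT cells of C2 than of C1 (-0.31, -0.42 and -0.51), a comparison that shares the WT libraries of C2. No cell cycle gene was called between dKO-LAP* and dKO cells with limma, and none had an unadjusted p under 0.05.

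The order of libraries within groups was compared, after the values had been seen, with the reads that HTSeq set aside as not uniquely aligned, which numbered, after normalization, 2600280 to 3066140 in dKO cells of C1 and 2809260 to 3206700 in those of C2. The library lowest in such reads was also lowest in Suz12 and in Bmi1 in 5 of 5 groups, as in 2.05% of all genes tested, and lowest in Rnf2 in 4 of 5, a count that 11.6% of all genes reach. It was so in 3 groups for Ezh2 and Jarid2, in 2 for Eed, Ring1 and Cbx8, in 1 for Cbx2 and in 0 for Ezh1. The library highest in such reads was also highest in Suz12, Bmi1 and Rnf2 in 1, 2 and 2 groups. The part of such reads in the spread within groups was not tested.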
